A study of Mus musculus with 6 samples.

Results

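The Id genes and their E protein partners were 6 genes, Id1, Id2, Id3, Tcf3, Tcf4 and Tcf12, out of 19057 named on the array. They were taken as every probe whose platform annotation carried one of these symbols, and were chosen by the difference between the groups in these same arrays. Their differences are therefore given as a description, without p-values, and their place in the fit over all genes is given only as a count. Identifiers were checked because Tcf3 and Tcf4 are also older names of other genes, Tcf7l1 and Tcf7l2. All 14 probes carried the identifiers of the E protein and Id genes.

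The arrays compared regulatory T cells (Treg), CD4 T cells that restrain immune responses, from the colon lamina propria (cLP) and from the mesenteric lymph node (MLN). Both groups, of 3 samples each, came from untreated C57BL/6 mice in the steady state with the genotype labelled Foxp3gfp, and cells were sorted as positive for TCRβ, CD4 and Foxp3. Total RNA was amplified, labelled with biotin and read on Illumina bead arrays. The labels do not say whether samples came from separate or pooled animals, so a p-value here speaks to the scatter of these samples alone.

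E proteins are transcription factors of the basic helix-loop-helix (bHLH) family. They bind as dimers to the E-box, a short DNA motif, and direct genes of lymphocyte development and differentiation. Tcf3 encodes E2A, Tcf12 encodes HEB and Tcf4 encodes E2-2. Id proteins carry the helix-loop-helix but lack the basic region that contacts DNA, so a dimer of Id and E protein cannot bind the E-box. In mouse T cells Id2 is known for its link to effector differentiation, and Id3 is induced by T cell receptor signalling and marks less differentiated cells. Loss of both in mouse Treg is known to disturb their homeostasis.

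Detected probes made up 32.7% to 35.4% of all probes per array. The median signal of detected over undetected probes was 3.33 to 4.10 in MLN and 2.61 to 3.18 in cLP samples. Across genes, which are not independent replicates, arrays correlated at 0.969 to 0.977 within MLN, 0.927 to 0.947 within cLP and 0.829 to 0.846 between the groups. Foxp3, the factor used for the sort, had a log2 intensity of 13.59 ± 0.20 in MLN and 13.58 ± 0.26 in cLP samples (SD, n = 3 each), and all 8 Treg and T cell markers were measured. Of these, Ikzf2 rose by 2.22 and Ctla4 by 1.05, Il2ra fell by 1.67 (limma, adjusted p = 0.0249, 0.00679 and 0.0112), and the other markers did not pass, with Cd3d at -0.67 and Cd3e at -0.60 in groups that did not overlap. Of 9157 genes tested, 1110 were higher and 1864 lower in cLP Treg, and the median difference over all genes was -0.21 (log2).

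In the colon samples Id2 was high and Id3 was not detected above background, while the lymph node samples had Id3 and less Id2. Tcf4 was modestly higher in the colon samples. The probes of Tcf12 gave differences of unlike size, and neither Id1 nor Tcf3 was measured well enough to compare. A probe entered the comparison where 3 or more of the 6 arrays gave it a detection p below 0.05. Of the 14 probes, 7 passed this filter, 7 did not, and 4 of the latter were detected on no array. Id2, Id3, Tcf4 and Tcf12 were thus in the fit over all genes. Id2 and Tcf4 passed the threshold (limma, adjusted p under 0.05 over all genes) as higher and Id3 as lower, 3 of 4, where 32.5% of all genes passed in either direction. The groups did not overlap in the same 3 of 4 genes, as in 47% of all genes. The contrast was itself used in choosing the members, so nothing is read from these counts. In bulk samples, fewer cells with a transcript and less of it per cell cannot be told apart, here and in every result that follows.

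Id2, the Id protein of effector lymphocytes and innate lymphoid cells, was read by 3 probes, all detected on all 6 arrays. The probe with the highest mean, ILMN_1228557, had log2 intensities of 7.71, 7.96 and 7.50 in MLN samples 1 to 3 and 12.55, 12.44 and 11.83 in cLP samples 1 to 3. The cLP samples lay far above the MLN samples with no overlap, and the spread within each group was small beside the gap. The means were 7.72 ± 0.23 and 12.28 ± 0.39 (SD, n = 3 each), a difference of 4.56 with a standard error of 0.27, or 23.5-fold. In the deposited intensities before any correction, the same probe read 386, 363.1 and 292 in MLN and 5880.3, 4553.8 and 2949.3 in cLP samples.

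Probe ILMN_1236868 for Id2 had 7.56, 7.95 and 7.38 in MLN and 12.52, 11.65 and 11.51 in cLP samples, a difference of 4.27 ± 0.33 (SE). Probe ILMN_2887239 had 7.57, 8.04 and 8.08 in MLN and 11.15, 11.98 and 11.20 in cLP samples, a difference of 3.55 ± 0.30 (SE). All 3 probes thus separated the groups in the same direction, by 23.5-fold, 19.3-fold and 11.7-fold. In the authors' deposited log2 values the differences of the 3 probes were 3.86, 3.54 and 2.87. Which cLP sample was highest varied with the probe: sample 1 by ILMN_1228557 and ILMN_1236868, and sample 2 by ILMN_2887239.

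Id3, the Id protein induced by antigen receptor signalling, was read by 1 probe, ILMN_2687169. Its log2 intensities were 8.18, 7.91 and 7.63 in MLN samples 1 to 3 and 5.20, 5.35 and 5.01 in cLP samples 1 to 3. All MLN samples lay above all cLP samples, and the probe was detected on every MLN array and on no cLP array. Its detection p in the cLP samples was 0.108, 0.0887 and 0.209, so the cLP values give only an upper bound. The means were 7.91 ± 0.27 and 5.19 ± 0.17 (SD, n = 3 each). Against the lowest signal that counts as detected, Id3 was at least 5.27-fold lower in cLP Treg under the main normalisation. Like every bound given below, this one holds for that normalisation only. The fitted difference was -2.72 with a standard error of 0.24, part of which rests on background. The Id3 difference was smaller, at -1.50 in the deposited log2 values, -1.44 with no background correction and -1.96 with an offset of 50. The deposited intensities were 506.3, 353.1 and 314.4 in MLN and 142.5, 108.2 and 102.4 in cLP samples. Since only MLN arrays carried Id3 through the detection filter, a difference was to be found by the way it was selected. The same holds, with their p-values, for Il23r, Jchain, Acta2, Col3a1, Msc, Crebbp and Gzmb, which no MLN array detected, and for Ccr9 and Lyl1, which no cLP array detected.

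Id1, an Id protein better known from endothelial and stem cells than from T cells, was read by probe ILMN_2672190. Its log2 intensities were 6.27, 5.09 and 5.34 in MLN and 5.58, 5.35 and 5.43 in cLP samples. The probe was detected in MLN sample 1 and cLP sample 1 alone and did not pass the filter. The groups overlapped, and no difference was detectable at this signal. Id4, the remaining Id gene, had no probe that passed the filter.

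**Figure D1:**
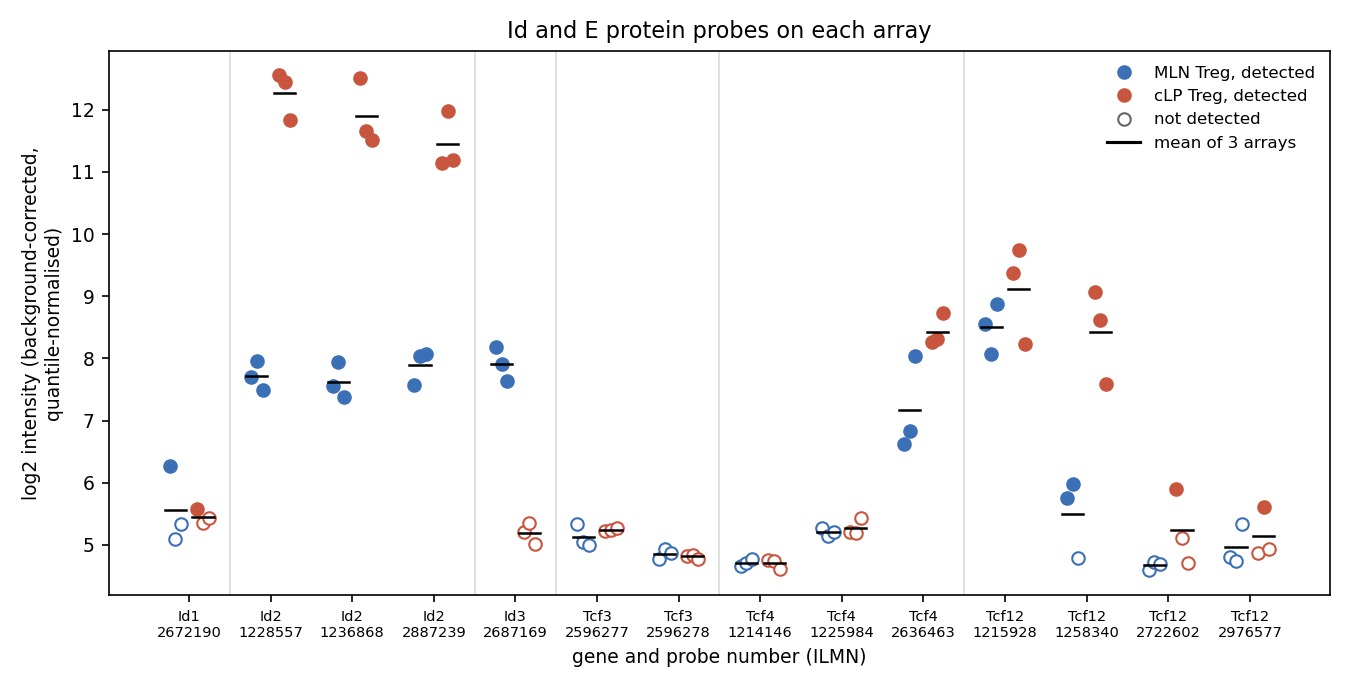
Log2 intensity (y axis) of all 14 probes of Id1, Id2, Id3, Tcf3, Tcf4 and Tcf12 (x axis) on each array, with MLN Treg in blue and cLP Treg in red. Filled points were detected, open points were not, and bars are means of 3 arrays. The 3 Id2 probes are near 8 in MLN and 11 to 13 in cLP samples, Id3 is open in all cLP samples, and both Tcf3 probes are open throughout.

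The sequences upstream of Id2 and Id3 are shown because, by the reported probe of each gene, these members differed most and in opposite directions. They are the 250 bases before the annotated start in RefSeq (GRCm38.p6), Id2 at chr12:25096093-25096342 on the minus strand and Id3 at chr4:136143572-136143821 on the plus strand, written 5′ to 3′ with any E-box in capitals.
Id2: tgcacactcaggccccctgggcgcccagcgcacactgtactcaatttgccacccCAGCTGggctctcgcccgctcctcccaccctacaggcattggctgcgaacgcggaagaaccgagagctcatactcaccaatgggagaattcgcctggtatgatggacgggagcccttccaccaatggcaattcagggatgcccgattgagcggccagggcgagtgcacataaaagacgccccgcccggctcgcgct
Id3: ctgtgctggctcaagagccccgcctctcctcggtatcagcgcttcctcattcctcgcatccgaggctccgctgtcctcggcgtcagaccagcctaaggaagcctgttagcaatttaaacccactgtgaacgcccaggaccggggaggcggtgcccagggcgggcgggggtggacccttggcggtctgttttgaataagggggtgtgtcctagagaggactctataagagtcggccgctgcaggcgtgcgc
The E-box was searched as CANNTG, which reads the same on both strands, and it includes the narrower motifs CAGCTG and CAGGTG. The Id2 window held 1 E-box, CAGCTG, at position -196 from the start, and the Id3 window held none. Of 32851 windows of this length over all genes, 66.2% held at least 1 E-box, 13% held CAGCTG and 17.2% held CAGGTG or its complement. Neither window held GCGGGGGCG, the core bound by EGR factors (2.57% of all windows), GTCTAGAC, a SMAD box (0.167%), or TTCNNNGAA, a STAT site (7.02%), on either strand. Only these full patterns were searched, so shorter or variant sites, such as parts of GTCTAGAC, were not examined. A match describes letters in this window only and shows no binding.

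Among the E proteins, Tcf3 could not be followed. Its probe ILMN_2596277 read 5.33, 5.04 and 4.99 in MLN and 5.23, 5.24 and 5.26 in cLP samples. Probe ILMN_2596278 read 4.76, 4.93 and 4.88 in MLN and 4.83, 4.84 and 4.77 in cLP samples. Neither was detected on any array, so E2A transcripts were not detectable with these probes.

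Tcf4, which encodes E2-2 and is best known from plasmacytoid dendritic cells and B cells, was detected by 1 of its 3 probes. Probe ILMN_2636463 had log2 intensities of 6.63, 6.84 and 8.04 in MLN and 8.26, 8.32 and 8.72 in cLP samples. The groups did not overlap, but MLN sample 3 stood close to the cLP samples and apart from the other MLN samples. The means were 7.17 ± 0.76 and 8.43 ± 0.25 (SD, n = 3 each), a difference of 1.26 with a standard error of 0.39, or 2.40-fold. Without MLN sample 3 the difference was 1.67, and without MLN sample 1 or 2 it was 0.97 or 1.09. The difference was 0.68 in the deposited log2 values. All 16 processing alternatives kept the direction, but Tcf4 passed the threshold in only 8 of them. Probes ILMN_1214146 and ILMN_1225984 were detected on no array.

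Tcf12, which encodes HEB, had 4 probes, of which 2 passed the filter, and these differed from each other in size. The brighter, ILMN_1215928, had 8.55, 8.08 and 8.88 in MLN and 9.37, 9.74 and 8.22 in cLP samples. Its groups overlapped, since cLP sample 3 lay within the MLN values. The means were 8.50 ± 0.41 and 9.11 ± 0.79 (SD, n = 3 each), a difference of 0.61 with a standard error of 0.42.

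The dimmer Tcf12 probe, ILMN_1258340, had 5.75, 5.98 and 4.78 in MLN and 9.07, 8.62 and 7.59 in cLP samples. It was detected on 2 MLN arrays and on all cLP arrays, and its groups did not overlap. The means were 5.50 ± 0.63 and 8.43 ± 0.76 (SD, n = 3 each), a difference of 2.92 with a standard error of 0.46, with part of the MLN mean at background. In the deposited log2 values the brighter probe differed by 0.21 and the dimmer by 1.68. Averaging both probes gave a difference of 1.77, and leaving out cLP sample 3 gave 1.06 for the brighter probe. On both probes cLP sample 3 was the lowest of the cLP samples. The other probes, ILMN_2722602 and ILMN_2976577, were each detected on 1 cLP array and no MLN array. Which transcripts each probe reads was not analysed here.

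**Figure D2:**
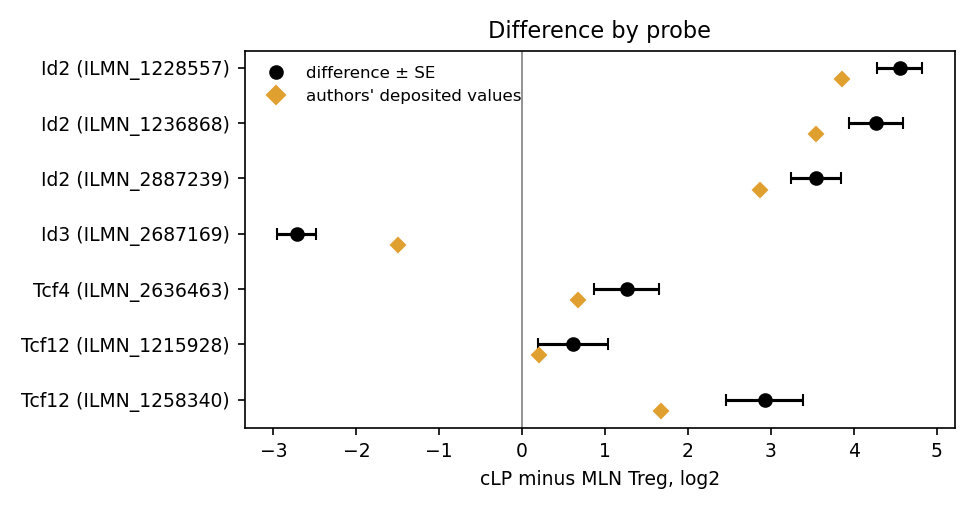
Difference between cLP and MLN Treg (x axis, log2) for the 7 probes that passed the filter (y axis). Black points with bars are the difference ± standard error, and yellow diamonds are the same difference in the authors' deposited log2 values. The 3 Id2 probes lie between 3.55 and 4.56, Id3 lies below 0, and the Tcf12 probes lie at 0.61 and 2.92.

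Across processing alternatives the differences of Id2 ranged from 3.86 to 4.80 and those of Id3 from -2.90 to -1.44, in the same direction in each. Where detection on all 6 arrays was required, Id3 had no value. Tcf4 ranged from 0.68 to 1.67 and Tcf12 from 0.16 to 1.77. Tcf12 passed the threshold in 2 of 16 alternatives, with the mean of probes and without cLP sample 3. With the mean of probes all 4 tested members passed.

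**Figure D3:**
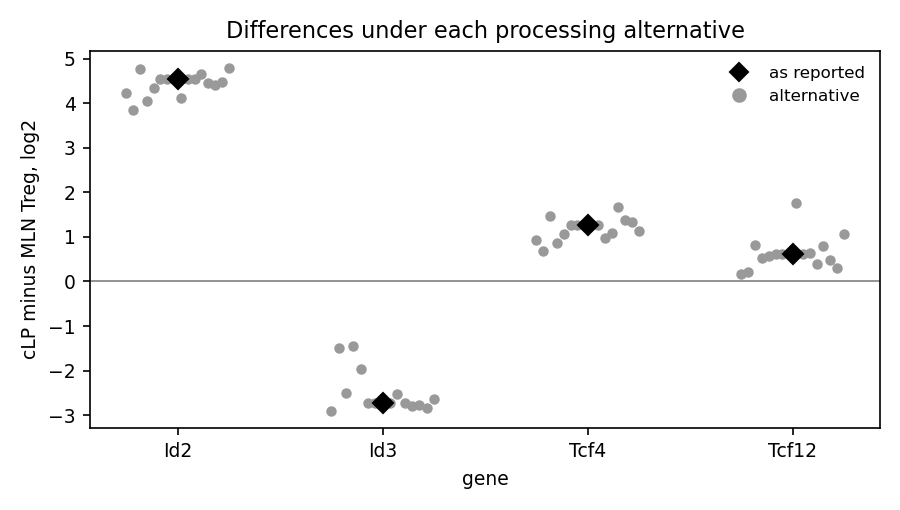
Difference between cLP and MLN Treg (y axis, log2) for Id2, Id3, Tcf4 and Tcf12 (x axis) as reported (black diamonds) and under each processing alternative (grey points). All points of Id2, Tcf4 and Tcf12 lie above 0 and all of Id3 below it.

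Genes with the profile closest to each member were ranked by the distance between log2 values centred per gene over the 6 arrays. Closest to Id2 were Lilr4b (distance 0.55), Smim3 (0.57) and Ctla2a (0.59), which differed by 4.17, 4.63 and 4.13. Closest to Id3 were Zfp512 (0.24), Dtx1 (0.27) and Apobec3 (0.29), which differed by -2.66, -2.80 and -2.50. Closest to Tcf4 were Top2a (0.52), a topoisomerase of dividing cells, Tfdp2 (0.55) and Rtn3 (0.58). Closest to Tcf12 was Ahr (0.43), the aryl hydrocarbon receptor, followed by Fes (0.47) and Echdc1 (0.49). Ranking by this distance selects genes whose difference is like that of the member. The similar size of the Ahr difference (0.70) to that of the brighter Tcf12 probe is therefore no separate result.

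Markers of other cells known for Id or E proteins were read beside these results. A gene with no probe that passed the filter may still have been detected on fewer than 3 arrays. Of 9 innate lymphoid cell markers 5 were measured and 2 were higher in cLP samples. These were Il23r, at least 2.90-fold with no MLN array detected, and Kit, by 2.14 (log2) with 1 MLN array detected. Gata3, Klrb1c and Zbtb16 differed by 0.79, -0.53 and -0.08 and did not pass. The summed linear normalised signal of the 5 measured markers was 386 to 653 in MLN and 895 to 1234 in cLP samples. Gata3 was the brightest of the 5, with mean log2 intensities of 8.37 in MLN and 9.16 in cLP samples. The defining genes Il22 and Ncr1 had no probe that passed the filter. Of 6 plasmacytoid dendritic cell markers 4 were measured, with Siglech higher by 1.45 (log2) and Ccr9 at least 1.73-fold lower. Bst2 differed by -0.62 and Irf8 by 0.52, and neither passed. The sums were 3590 to 5007 in MLN and 8554 to 11020 in cLP samples. Siglech was their largest part, with mean log2 intensities of 11.65 in MLN and 13.09 in cLP samples. Klk1 and Cox6a2 of that list had no probe that passed the filter.

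Of 6 B cell markers 3 were measured, with sums of 376 to 696 in MLN and 149 to 151 in cLP samples. Cd79b differed by -2.69 (log2), past the threshold, and Pax5 had no probe that passed the filter. Of 7 endothelial markers only Pecam1 was measured, with a linear signal between 627 and 865 in MLN and between 503 and 943 in cLP samples. Of 8 fibroblast and smooth muscle markers 3 were measured and 2 were higher in cLP samples. These were Acta2, at least 33.7-fold, and Col3a1, at least 5.95-fold, both with no MLN array detected. Col1a2 differed by 0.57 (log2) and did not pass. The sums were 98.9 to 129 in MLN and 1500 to 2640 in cLP samples. Col1a1, Dcn, Myh11, Tagln and Pdgfra had no probe that passed the filter.

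Of 6 cytotoxic T cell markers 3 were measured, with sums of 19346 to 24158 in MLN and 31938 to 33268 in cLP samples. Nkg7 rose by 1.87 and Prf1 by 0.77, and Cd8b1 differed by -0.78 and did not pass. Cd8a and Gzmk had no probe that passed the filter. Of 5 plasma cell markers Mzb1, Sdc1 and Derl3 had no probe that passed the filter. Jchain (at least 2.13-fold) and Xbp1 (by 1.02 on the log2 scale) were higher in cLP samples. Their sums were 2448 to 2477 in MLN and 4960.4 to 5062 in cLP samples. Of 8 macrophage and dendritic cell markers 2 were measured, and Lyz2 fell by 1.53 with 1 cLP array detected. Their sums were 126 to 215 in MLN and 80.1 to 105 in cLP samples. Of 8 colon epithelial markers 4 were measured. Krt8 differed by 1.62 in groups that did not overlap and did not pass (adjusted p = 0.0544), nor did Cdh1, Epcam and Lgals4. The sums were 922 to 1173 in MLN and 847 to 2843 in cLP samples. The highest array was cLP sample 3 for Cdh1 (8.42), Krt8 (9.06) and Lgals4 (10.82). This was not so for Epcam, at 7.34 in cLP sample 3 and 8.16 in cLP sample 2. The mast cell markers had no probe that passed the filter. The part of these cells in the Id2, Id3, Tcf4 and Tcf12 differences was not tested.

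Genes that act on Id transcription in mouse lymphocytes differed in both directions, with the EGR factors and TGF-β receptors lower. Of 18 such genes, 16 were tested, 7 fell and 3 rose, with a median difference of -0.71 against -0.21 over all genes. Over all genes 20.4% fell and 12.1% rose. With the median difference set to 0 the list had 4 lower and 3 higher calls. Egr1, Egr2 and Egr3 are early response factors of T cell receptor signalling that induce Id3, and all 3 fell. Egr2 read 11.15, 10.67 and 11.73 in MLN and 7.70, 7.58 and 5.18 in cLP samples. It fell by 4.36 ± 0.66 (limma, adjusted p = 0.00295), with 2 of 3 cLP arrays detected and cLP sample 3 the lowest.

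Egr3 read 10.02, 10.20 and 10.29 in MLN and 6.87, 6.68 and 6.94 in cLP samples, and fell by 3.34 ± 0.21 (adjusted p = 0.000143). Its samples were close together within each group, but with the mean of its detected probes it differed by -1.65. Egr1 fell by 1.18 ± 0.32 (adjusted p = 0.027). In the receptor chain for TGF-β, a cytokine that acts on Id genes through SMAD factors, Tgfbr2 fell by 1.77 ± 0.34 (adjusted p = 0.00717) and Tgfbr1 by 1.48 ± 0.30 (adjusted p = 0.00856). With the mean of its probes Tgfbr2 differed by -0.26 and no longer passed. Among the SMAD factors, which serve TGF-β and related ligands, Smad2 and Smad5 fell by 0.93 and 1.53. Both were close to the threshold (adjusted p = 0.0496 and 0.0457). Smad3 differed by 0.21 and Smad1 by -1.61, and neither passed. The receptors of related ligands, Bmpr1a, Bmpr2 and Acvr1, differed by -0.32, -0.48 and -0.49, and Tgfb1 by 0.42. None of these passed.

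The members that rose were Stat5a and Stat5b, which carry signals of IL-2 and related cytokines, and Prdm1. Stat5a rose by 1.68 ± 0.23 (adjusted p = 0.00197) and Stat5b by 1.01 ± 0.27 (adjusted p = 0.0254). Prdm1, which encodes Blimp-1, a factor that represses Id3 rather than inducing it, rose by 0.87 ± 0.21 (adjusted p = 0.0177). The calls of Stat5b and Prdm1 ended under 7 and 6 of 16 alternatives. Without MLN sample 1 or 2 Stat5b differed by 0.98 or 0.88, and without cLP sample 1 or 2 by 1.01 or 0.85, and it did not pass. With median scaling Stat5b differed by 0.56 and Prdm1 by 0.39, in the authors' deposited values they differed by 0.53 and 0.41, and neither passed. Stat5a differed by 1.10 in the authors' deposited values. Prdm1 differed by 0.87, 0.85 and 0.86 without MLN samples 1, 2 and 3 and did not pass.

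Other bHLH proteins and other proteins that bind E-boxes differed in both directions, by up to 4.32 (log2). Of 23, 9 were tested, 5 rose and 3 fell, where 12.1% of all genes rose and 20.4% fell. Their median difference was 1.80 against -0.21 over all genes, and 13 were named on the array but had no probe that passed the filter. Zeb2, a zinc finger repressor that binds E-box-like sites, read 5.54, 5.18 and 5.17 in MLN and 10.71, 9.59 and 8.55 in cLP samples. The cLP samples spread widely but all lay above the MLN samples, of which 1 was detected. Zeb2 rose by 4.32 ± 0.50 (adjusted p = 0.000986) and its relative Zeb1 by 1.80 ± 0.23 (adjusted p = 0.0016). Zeb2 differed by 2.00 with the mean of its probes, by 2.68 in the authors' deposited values and by 2.82 with no background correction.

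Bhlhe40, a bHLH repressor of activated T cells, read 9.41, 8.93 and 8.98 in MLN and 12.82, 12.96 and 13.01 in cLP samples. It rose by 3.82 ± 0.23 (adjusted p = 0.00011), and its cLP samples were close together. Hey1, a repressor of the Notch pathway, rose by 3.23 ± 0.37 (adjusted p = 0.000942). Msc, a bHLH repressor known as ABF-1 in lymphocytes, was detected on no MLN array and was at least 3.71-fold higher in cLP Treg (adjusted p = 0.00103). Snai3, a zinc finger factor, fell by 1.45 ± 0.32 (adjusted p = 0.0128), and differed by -1.27 and -1.34 without MLN samples 1 and 3, where it did not pass. It differed by -0.84 in the authors' deposited values and by -0.79 with no background correction. Hes6 fell by 1.13 ± 0.32 (adjusted p = 0.0317), a call that ended under 7 of 16 alternatives, among them leaving out sample 1 or sample 2 of either group, with differences of -1.21 to -0.88. Lyl1, a bHLH partner of E proteins in blood cells, was detected on no cLP array. It was at least 1.74-fold lower under the main normalisation (adjusted p = 0.0084). Its difference was smaller, at -0.49, in the authors' deposited values, -0.56 with no background correction and -0.76 with an offset of 50. Twist1 differed by -0.08 and did not pass.

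Genes linked to E proteins in lymphocytes differed in both directions. Of 20, 11 were tested, 2 rose and 2 fell, 4 of 11 where 32.5% of all genes passed, with a median difference of -0.07 against -0.21 over all genes. Cdkn1a, which encodes the cell cycle inhibitor p21, read 6.70, 6.07 and 5.72 in MLN and 11.74, 11.61 and 12.54 in cLP samples. It rose by 5.80 ± 0.35 (adjusted p = 0.000129), with the groups far apart. Cdkn1a differed by 3.93 with the mean of its detected probes and by 4.50 in the authors' deposited values. Il7r, the receptor for IL-7, rose by 1.01 ± 0.27 (adjusted p = 0.0241). Gfi1, a transcriptional repressor of lymphocytes, fell by 1.85 ± 0.27 (adjusted p = 0.00253). Cxcr5, the receptor for follicle homing, fell by 1.09 ± 0.32 (adjusted p = 0.0338).

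The calls of Il7r and Cxcr5 ended under 6 and 8 of 16 alternatives. Il7r differed by 0.83 and 1.00 without MLN samples 1 and 2 and by 0.95 and 0.96 without cLP samples 1 and 2, and did not pass. With the mean of its probes Il7r differed by 1.74. Cxcr5 differed by -1.08, -1.14 and -1.05 without MLN samples 1, 2 and 3 and by -0.85 without cLP sample 1, and did not pass; nor did it without cLP sample 3. Foxo1, Gata3, Notch1, Socs3, Cd4, Ebf1 and Bcl11b did not pass, with differences between -0.39 and 0.79. Rag1, Rag2, Ptcra, Igll1 and Vpreb1, E protein targets of developing lymphocytes, had no probe that passed the filter, and neither had Notch3 and Hes1.

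Cofactors of E proteins and proteins that set the turnover of Id proteins showed 2 calls among 9 tested of 14, 1 in each direction, where 32.5% of all genes passed. Their median difference was -0.04 against -0.21 over all genes. Crebbp, which encodes the acetyltransferase CBP, was detected on no MLN array and was at least 1.51-fold higher in cLP Treg (adjusted p = 0.0175). Its call ended under 4 of 15 alternatives, with no background correction, at a fitted difference of 0.43, and without MLN sample 1, 2 or 3, at 0.99, 1.07 and 0.99. Ldb1, an adaptor that joins bHLH and LIM proteins, fell by 1.08 ± 0.21 (adjusted p = 0.00858). Usp1, a deubiquitinase that stabilises Id proteins, differed by -0.35, and Ep300, which encodes p300, by 0.46, and neither passed.

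Genes known to accompany Id2 in effector lymphocytes were higher in cLP Treg. Of 14, 12 were tested and 11 rose, against 12.1% over all genes, with a median difference of 2.76 against -0.21 over all genes, or 2.73 with bounds for genes not detected in MLN samples. The highest were Il10, an anti-inflammatory cytokine, by 5.20 ± 0.20 (adjusted p = 4.85e-05), Zeb2, and Klrg1, an inhibitory receptor of effector cells, by 4.04 ± 0.36 (adjusted p = 0.000371). Gzmb, a cytotoxic protease, was detected on no MLN array and was at least 7.42-fold higher (adjusted p = 0.000166). Tigit rose by 2.95 ± 0.28 (adjusted p = 0.000489) and Icos by 2.56 ± 0.23 (adjusted p = 0.000371), both receptors of activated Treg. Irf4 differed by 0.72 and did not pass (adjusted p = 0.0647). Zeb2 and Prdm1 belong to this list too. Like the other lists, it was chosen with earlier results of these data known, so nothing is read from its count of calls.

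Genes known to accompany Id3 in naive and memory cells did not move one way. Of 14, 10 were tested, 4 rose and 3 fell, where 12.1% of all genes rose and 20.4% fell. Their median difference was 0.06 against -0.21 over all genes. Lef1, a factor of naive T cells, fell by 1.63 ± 0.30 (adjusted p = 0.0059), and Klf2, which controls exit from tissue, fell by 0.94 ± 0.22 (adjusted p = 0.0164), a call that ended without MLN sample 2 (-0.83). Bcl6, a repressor of effector genes, rose by 1.75 ± 0.29 (adjusted p = 0.00417). Ccr7, the receptor for entry into lymph nodes, rose by 1.63 (adjusted p = 0.00379), and Satb1, a chromatin organiser of T cells, by 0.99 ± 0.27 (adjusted p = 0.0287). Il7r and Cxcr5, described above, are also in this list. Tcf7 was not analysed here, and Bach2 and Eomes had no probe that passed the filter.

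**Figure D4:**
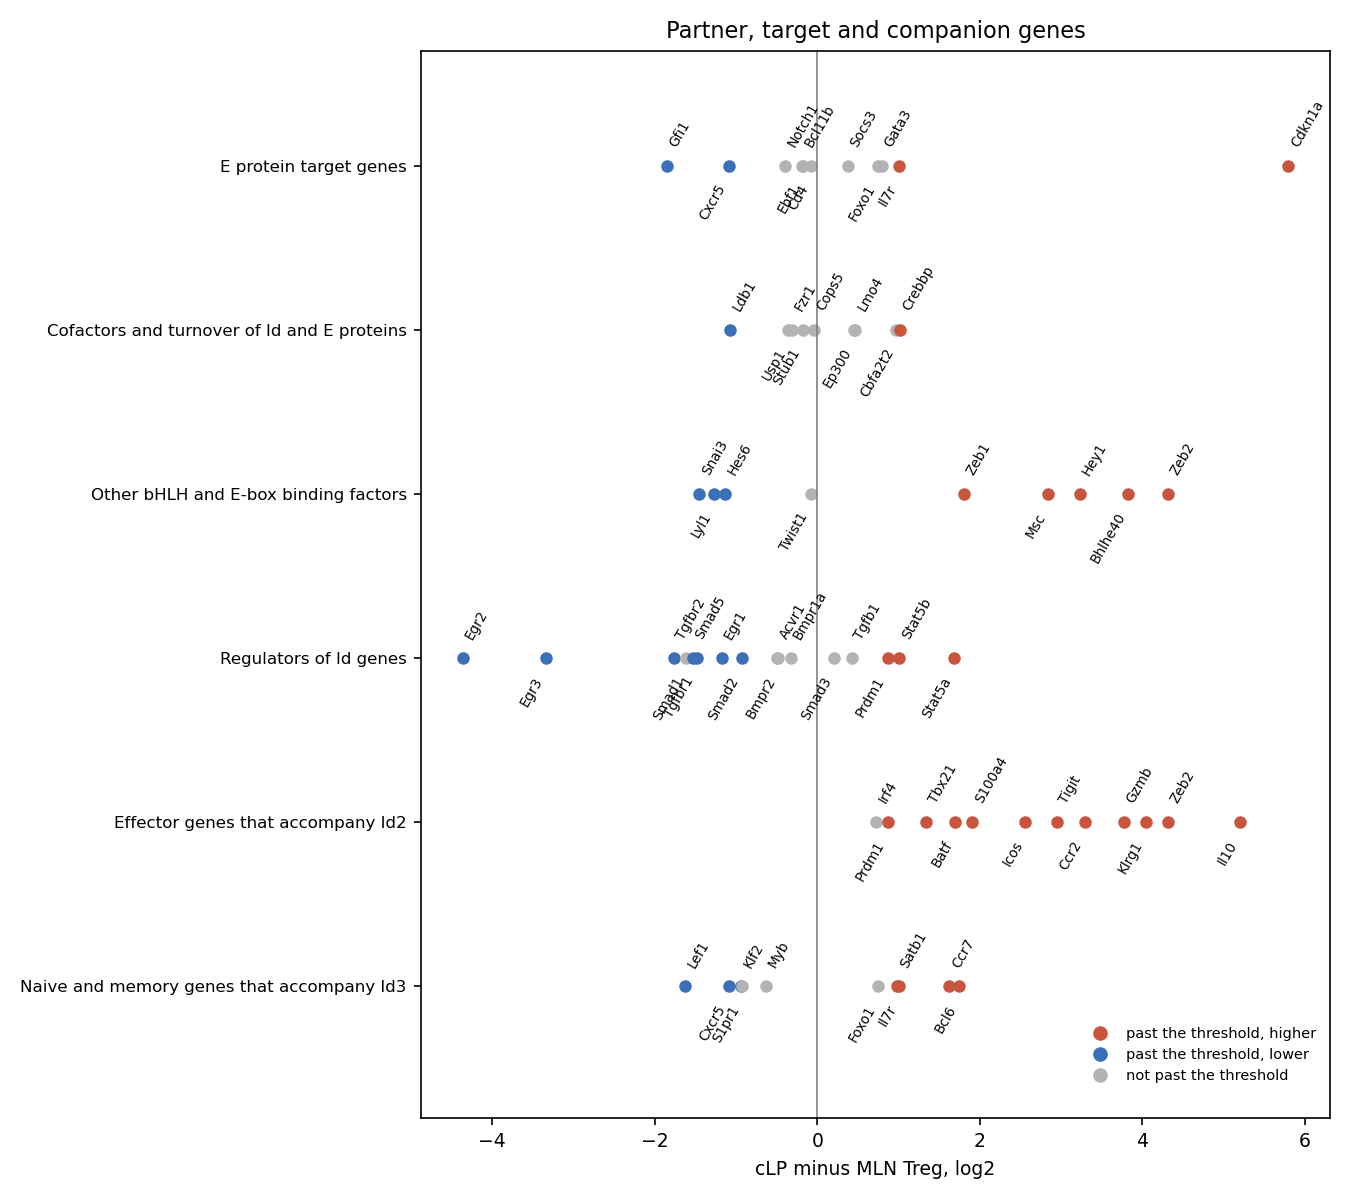
Fitted difference between cLP and MLN Treg (x axis, log2) of each tested gene, also where the text gives a bound, in 6 lists (y axis): targets and cofactors of E proteins, other bHLH and E-box binding factors, regulators of Id genes, and genes that accompany Id2 or Id3. Red points passed the threshold as higher, blue as lower, and grey points did not pass. Of 12 genes that accompany Id2, 11 are red, whereas the regulators of Id genes hold 7 blue and 3 red points.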

How the data were processed

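The authors deposited a table of probe intensities on a linear scale, without normalisation, with a detection p-value column per array; the submitters' processing notes name GenomeStudio 1.6.0. The deposited detection column rises with signal (rank correlation at least 0.991), so 1 minus it was used as the p. A second table the authors deposited holds log2 values, which equal the log2 intensity minus that of each array's 75th percentile. Their medians were -0.728, -0.607 and -0.848 in MLN samples 1 to 3 and -0.596, -0.689 and -0.661 in cLP samples 1 to 3. Rows of both tables were paired by their values on all 6 arrays within 0.1 (largest difference 0.0347).

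Intensities were corrected by normexp with an offset of 16 and quantile normalised on the log2 scale in limma 3.58.1 (R 4.3.3). Of 45281 probes, 34885 had 1 symbol, 18 several and 10378 none. A gene was represented by its named, detected probe with the highest mean. Differences are cLP minus MLN, from lmFit and eBayes with no block term and Benjamini-Hochberg adjusted p-values over 9157 genes with a threshold of 0.05. Where every array of a group left a gene undetected, its fold is a bound: per array of that group, the higher of the lowest detected signal and the probe's own value was used, under this normalisation only. No chip or scan was known, so batches could not be examined. The number of arrays limits the precision.

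The members and lists were chosen with earlier results of these data known, so no list supports another. From each list up to 3 genes that passed and rose most and 3 that fell most were named, with the 3 closest profiles of each member and Foxp3; the further list genes in the text were chosen after their values were seen. Pathway lists share Prdm1, Zeb2, Il7r, Cxcr5, Foxo1 and Hes1, and share Cd4, Cd79a and Gata3, among others, with marker lists. Promoter windows come from RefSeq. Alternatives changed the scaling, background, detection filter, probe choice, replicate block and left out each array.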

Additional observations from a re-analysis of the deposited data

How the results depend on the processing

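The differences of Id2, Id3, Tcf4 and Tcf12 kept their direction under all alternatives that gave a value. Id2 moved beyond the replicate spread with median scaling (4.22), the authors' values (3.86), no background correction (4.06) and the mean of probes (4.12). Id3 moved with the authors' values (-1.50), no background correction (-1.44) and an offset of 50 (-1.96), Tcf4 with the authors' values (0.68) and Tcf12 with the mean of probes (1.77). Leaving out 1 array gave 2 to 3 members past the threshold, 1808 to 3223 genes in all (1808 without MLN sample 1, 1910 without MLN sample 2), 2 to 3 targets, 1 to 3 cofactors, 6 to 8 other E-box factors, 5 to 10 Id regulators, 9 to 12 companions of Id2 and 3 to 6 of Id3. The fewest targets (2) came without MLN sample 1, MLN sample 2 or cLP sample 1, the fewest cofactors (1) without any MLN sample, and Id regulators numbered 5, 5 and 6 without MLN samples 1, 2 and 3. The companions of Id3 numbered 4, 3 and 4 without MLN sample 1, MLN sample 2 and cLP sample 1. Cofactors numbered 1 with no background correction. With detection on all 6 arrays, cofactors numbered 1 and other E-box factors 5, as fewer genes were tested. The causes of the other changes were not tested.

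Same-numbered samples did not deviate together across genes (r = -0.16, -0.10 and -0.01). With 3 arrays per group, this cannot settle whether the numbers pair the samples. With the replicate block 2453 genes, 3 members, 2 targets, 6 Id regulators and 4 companions of Id3 passed. Higher genes were 37.3% of calls as reported (1110 higher, 1864 lower), 21.5% with median scaling (831, 3042; median difference -0.51), 24.1% in the authors' values (882, 2780; -0.30) and 50.4% with the median difference set to 0 (1364, 1342). Of 24 named list genes, 9 lost their call under some alternative and none changed sign. Foxp3, with a difference of -0.01, turned to 0.20 with the median set to 0 and 0.21 with the mean of probes, and ranged from -0.15 to 0.10 with 1 array left out (0.09 and 0.01 without MLN sample 2 or 3, 0.10 and 0.03 without cLP sample 2 or 3). Signal near background limits Id1, Tcf3 and the cLP values of Id3.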
